A study of Caenorhabditis elegans with 2 samples.

Results

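Chromatin immunoprecipitation followed by sequencing recorded where tagged EOR-1 sat in whole L3 larvae of Caenorhabditis elegans, and the regions described here are those that lay on an autosome, outside every annotated gene and away from every protein-coding promoter. A region was included when its summit fell on chromosomes I to V, in no gene of any biotype, and at no protein-coding promoter, taken as the stretch that begins 1000 bp before a transcript start and ends 200 bp after it. These distal intergenic regions numbered 6358 of the 30000 candidate regions in the list called on both replicates together. The rule reads each region's position and none of its signal values. All animals belonged to 1 group: strain OP81, with the unc-119(ed3) mutation on chromosome III and the integrated transgene wgIs81 carrying eGFP-tagged eor-1, as L3 larvae of mixed sex, in 2 biological replicates. The tagged protein comes from a transgene, and whole larvae mix all tissues, so a region cannot be placed in a cell type. No second condition exists, and 2 samples of 1 group allow no test between groups.

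EOR-1 is a BTB and zinc finger transcription factor of the worm. It acts with EOR-2 downstream of Ras and Wnt signalling, in vulval induction and the excretory system among other tissues. The worm genome is compact, and most known regulatory elements lie close to the genes they act on. Enhancers far from a start site are known too, in long intergenic stretches and in introns. A candidate region is a local maximum of immunoprecipitated over control reads. The candidate lists of the authors were filled to a fixed length and hold background as well as binding. The optimal list is the much shorter set that the authors kept after testing the irreproducible discovery rate (IDR) between the replicates. Signal values are the authors' own, and their scale is unstated. Positions are in build ce11, counted from 1.

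Most of the distal intergenic regions were weak, and a small number were strong. The median pooled signal was 19.2 (quartiles 15.8 and 24.4, lowest 12.9, highest 187, n = 6358 regions). Candidate regions at autosomal promoters had a median of 19.8 (n = 6590) and a highest value of 384, and those inside autosomal genes had a median of 19.1 (n = 10599) and a highest value of 248. The medians of the 3 classes thus differed by less than the distance between the quartiles of each. Of the distal intergenic regions, 35 were themselves peaks of the optimal list (0.551%, exact Clopper-Pearson 95% interval 0.384–0.765). Another 2 overlapped an optimal peak by at least 1 bp, giving 37 (0.582%, 0.41–0.801). In the whole pooled list 1.01% of the candidate regions overlapped the optimal list. Autosomal promoter regions did so in 2.02% and regions inside autosomal genes in 0.302%. Intergenic regions of the X chromosome under the same position rule were optimal peaks in 1.00% (27 of 2687, 0.663–1.46). The median signal was 59.3 among the 35 autosomal optimal regions, against 109 among those 27 on X. No test is attached to these shares, because regions of 1 pair of libraries are not replicates. Read depth is not known, so no precision can be given to a single signal value, and the intervals cover counting error only.

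Sequences at 6 of the strongest regions are printed to show summits with and without the motif, chosen with earlier results of these data known. Each runs from 50 bp before to 50 bp after the summit on the forward strand of build WBcel235 (ce11), as RefSeq gives it, in the order of signal. Capitals mark GAGACGCAG or AGACGCAGA on either strand. On the strand printed these read CTGCGTCTC and TCTGCGTCT, and a run of 10 capitals holds both, overlapping.

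srw-60 / nhr-88, chrII:2974031-2974131: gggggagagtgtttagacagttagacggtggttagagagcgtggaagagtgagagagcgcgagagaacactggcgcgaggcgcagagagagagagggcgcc

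F54F12.1 / Y39E4B.6, chrIII:13061254-13061354: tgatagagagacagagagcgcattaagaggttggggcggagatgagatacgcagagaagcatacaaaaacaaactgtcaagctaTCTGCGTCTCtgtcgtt

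mdt-29 / pot-3, chrIII:13778991-13779091: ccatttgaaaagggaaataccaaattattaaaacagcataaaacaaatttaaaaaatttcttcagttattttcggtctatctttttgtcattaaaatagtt

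T04C4.3 / fnip-2, chrIV:2219622-2219722: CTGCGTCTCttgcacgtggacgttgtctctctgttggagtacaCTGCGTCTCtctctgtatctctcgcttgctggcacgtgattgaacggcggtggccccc

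F54F12.1 / Y39E4B.6, second region, chrIII:13062414-13062514: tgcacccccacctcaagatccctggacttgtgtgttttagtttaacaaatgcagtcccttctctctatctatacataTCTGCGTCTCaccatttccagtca

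zipt-15 / madf-1, chrIV:828507-828607: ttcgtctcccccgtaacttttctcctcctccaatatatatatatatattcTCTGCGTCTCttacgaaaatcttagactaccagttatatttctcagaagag

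The window near nhr-88 lacked the motif, but GAGAG occurs in it several times and its G+C share was 60.4%. The window near fnip-2 held 2 motif sites and had 58.4% G+C. The window between mdt-29 and pot-3, by contrast, had 22.8% G+C and neither word. The window between irld-55 and Y37A1B.7, not printed, also had neither word but had 51.5% G+C. The motif was at 7 of the 35 optimal regions, a smaller share than among the windows printed.

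The strongest distal intergenic region lay upstream of nhr-88, which encodes a nuclear hormone receptor. It spans II:2974013–2974103, a narrow region of 91 bp, with its summit 2558 bp from the 5′ end of nhr-88. Its signal was 187 in the pooled list, 103 in replicate 1 and 81.6 in replicate 2. It ranked 41 and 52 in the replicates. A further optimal peak, II:2971788–2972083, lay 2145 bp away in the same gap between the chemoreceptor gene srw-60 and nhr-88, with a pooled signal of 54.3 (31.5 in replicate 1 and 18.9 in replicate 2). Both replicates thus placed the first region among their strongest, while the second fell to rank 2058 in replicate 2.

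A pair of strong regions lay in the 15313 bp between F54F12.1 and Y39E4B.6 on chromosome III. The first, III:13061156–13061451, had 139.5 in the pooled list, 66.3 in replicate 1 and 70.3 in replicate 2. The second, III:13062316–13062611, had 79.0, 38.1 and 44.8 in the same order. The summits were 1160 bp apart and 9452 and 8292 bp upstream of Y39E4B.6, and each carried the motif. A further region in this gap, III:13068409–13068704, also held the motif but had a pooled signal of only 33.5 (13.1 and 16.8), and it was picked out after its values were seen.

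The region ranked 3 by signal, III:13779020–13779105, lay at the right tip of chromosome III, 4760 bp from its end. It had 118 in the pooled list, 72.0 in replicate 1 and 50.7 in replicate 2. Its summit was 133 bp past the 3′ end of mdt-29, a gene of the Mediator complex, and 1174 bp before pot-3. The region between T04C4.3 and fnip-2, IV:2219524–2219819, had 113 in the pooled list and 43.8 in replicate 2, but overlapped no region of replicate 1, whose nearest summit was 3117 bp away with a signal of 12.96. Among the 33 optimal regions matched in both replicates the pooled value was 0.833 to 1.19 times the sum of the replicate values (median 1.01), whereas here it was well over the one replicate value found. What replicate 1 held at this place was not tested.

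Further strong regions lay near genes of several kinds. On chromosome I, the region between R06C1.4 and R06C1.6 had a pooled signal of 111 (52.4 in replicate 1 and 55.4 in replicate 2). That upstream of F58D5.5 had 103 (55.1 and 48.1). The region between mfb-1, an F-box gene, and sup-17, which encodes an ADAM metalloprotease of the Notch pathway, had 79.0 (37.8 and 39.97). That between the zinc transporter gene zipt-15 and madf-1 on chromosome IV had 73.8 (33.2 and 38.9). The non-coding gene Y55F3BR.15 lay 334 bp from its summit. In each region of this paragraph the replicate values differed by less than the distance to the median of all distal intergenic regions in either replicate list, 11.8 and 10.6.

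On chromosome IV, the region with its summit 8639 bp from irld-55 and 9328 bp from Y37A1B.7 had 104.5 (49.7 and 58.2). The non-coding gene Y37A1B.336 was only 60 bp from the summit, so this region was far from protein-coding genes but not from every gene. The region 8477 bp upstream of unc-44, the ankyrin gene of axon guidance, had 66.7 (33.5 and 38.8), and a piRNA gene, 21ur-5229, lay 9 bp from its summit. The region 3747 bp upstream of lip-1, a MAP kinase phosphatase gene, had 65.8 (31.1 and 31.5). Its summit was 12 bp from the non-coding gene C05B10.21. A weaker optimal peak lay 1832 bp further from lip-1, with 53.0 (20.3 and 33.2). The piRNA gene 21ur-13576 was 55 bp from that summit. The region near tax-6, a calcineurin gene, had 59.4 (36.5 and 20.4), and the non-coding gene C02F4.10 lay 263 bp from its summit.

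The other regions among the 25 of highest signal had pooled values of 56.0 to 77.6. They included regions upstream of mec-8, an RNA-binding protein gene of touch neuron development (61.4), between nlp-40, a neuropeptide gene of the defecation rhythm, and rcor-1, a CoREST gene (59.3), and past the 3′ end of atfs-1, the transcription factor gene of the mitochondrial unfolded protein response (59.1). The region between T28F4.1 and asic-2, a DEG/ENaC channel gene, had 57.9, and that 411 bp past the 3′ end of egl-9, the HIF prolyl hydroxylase gene, had 57.0. The remaining ones lay between W06H8.6 and K08B12.3 (77.6), Y48G8AR.8 and Y48G8AR.2 (72.6), Y17G7B.17 and Y17G7B.18 (71.9), C15H7.4 and C07A9.9 (57.9), F58D12.1 and F58D12.3 (57.5), F26F12.3 and F26F12.8 (56.3), and B0457.4 and B0457.6 (56.0). The non-coding gene F26F12.19 lay 42 bp from the summit between F26F12.3 and F26F12.8. The replicates were uneven at some of the regions in this paragraph. The region near mec-8 had 21.4, at rank 1678, in replicate 1 and 42.6, at rank 112, in replicate 2. That between nlp-40 and rcor-1 had 37.3, at rank 154, in replicate 1 and 21.7, at rank 1088, in replicate 2. At egl-9 the values were close, 31.2 in replicate 1 and 27.04 in replicate 2.

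**Figure D1:**
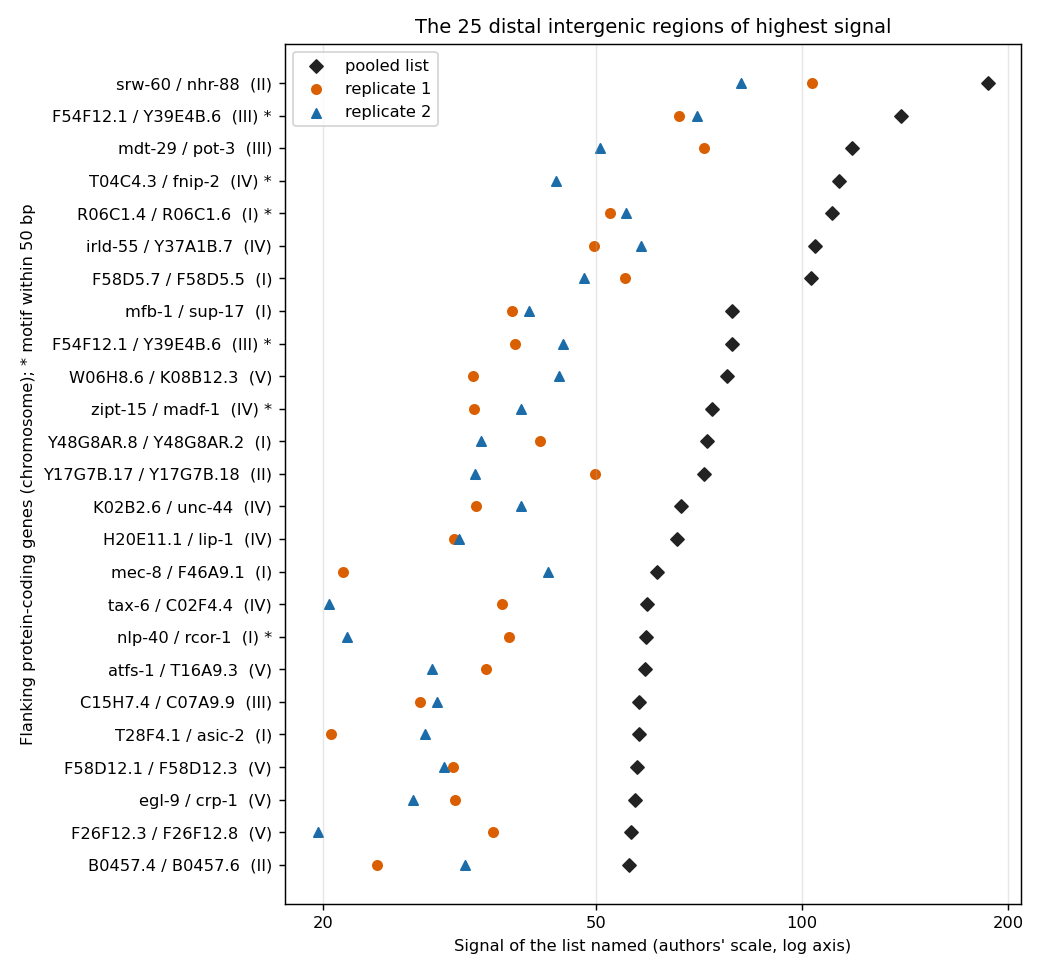
Signal of the 25 distal intergenic regions of highest pooled signal, with the value of the pooled list and of each replicate list on the log x axis and the flanking protein-coding genes and chromosome on the y axis. Pooled values run from 56.0 to 187, and the region between T04C4.3 and fnip-2 has no value in replicate 1.

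All 25 of these regions and the next 10 were in the optimal list, and the order of pooled signal marked its edge. The lowest optimal value was 53.0, between mans-2 and cyl-1, and the highest value outside the list was 52.0, between cbl-1 and lin-41, a gene of the heterochronic pathway. In the pooled list these 35 regions had a −log10 q value of at least 1.46, and 15 of them shared the highest value of that list, 2.50. The region near lin-41 and those named next were chosen after their values were seen. It lay 1053 bp past the 3′ end of lin-41 and 704 bp from the microRNA gene cel-mir-79, and had 34.5 in replicate 1 and 21.2 in replicate 2. The region 1618 bp upstream of hif-1, the hypoxia-inducible factor gene, had 49.3 in the pooled list (30.7 and 18.4). The region between hsp-1, the constitutive Hsp70 gene, and nra-1 had 48.7 (19.7 and 33.6), with its summit 115 bp past the 3′ end of hsp-1 and 10 bp past that of nra-1. The 3 regions lay just outside the optimal list. At each of the 3, the larger replicate value was more than 1.27 times the smaller, the median ratio given next for the optimal regions. They do not stand for all regions at this edge, where others were mixed. The region between mnk-1 and cdc-48.1 (49.5) was more even in the values as deposited, with 21.2 in replicate 1 and 24.5 in replicate 2. Its ranks there were 1757 and 606. The region between npp-7 and pamn-1 (50.6) was uneven too, with 36.4 and 14.3.

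Of the 35 optimal regions, 33 had a region in both replicate lists. The larger of the replicate values was 1.27 times the smaller at the median, and 1.02 to 1.99 times over all 33. The ratio was over 1.5 at 9 of them. Replicate 1 was higher at 16 of the 33 and replicate 2 at the rest. These ratios and counts use the values as deposited. They are not adjusted for the scales of the replicate lists, whose medians over all regions were 11.9 and 10.6. The same median ratio was 1.29 at 118 optimal peaks of autosomal promoters and 1.27 at 31 inside autosomal genes. In their own replicate lists, each cut to as many regions as the optimal list holds, 22 of the 35 were among the strongest of replicate 1, 22 among those of replicate 2, 13 in both and 4 in neither. A region between mans-2 and cyl-1 had 44.5 in replicate 1 but overlapped none in replicate 2. The optimal list was drawn from these replicates by the authors, so this describes the selected regions and is no separate measure of agreement.

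Taken over all 6358, the regions were found in the replicates about as often as other candidates. A region of replicate 1 was overlapped by 4629 (72.8%) and a region of replicate 2 by 4523 (71.1%). Both were overlapped by 3133 (49.3%, 48.04–50.5), while 339 overlapped neither. In the whole pooled list 49.4% of the candidate regions overlapped both, so the distal intergenic share is near the background. The share was lower at lower signal. Both replicates were matched by 24 of the first 25 regions, 73 of the next 75 and 179 of the 185 after those, but by only 1168 of the weakest 3858 (30.3%, 28.8–31.8). The pooled list was called on the reads of both replicates, so pooled and replicate values are not independent.

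Across the 3133 regions with both values, the signals of replicates 1 and 2 correlated with a Spearman rho of 0.157 and, after log2 transformation, a Pearson r of 0.242. Across the 33 optimal ones these were 0.454 and 0.584. In the other classes rho was 0.265 at autosomal promoters, 0.155 inside autosomal genes and 0.139 in intergenic X regions. At the optimal peaks of these classes it was 0.354, 0.292 and 0.794. Of the 3133 regions, 243 shared a replicate match with another. The points share the same libraries, and no p value is attached. When the same position rule was applied to each replicate's own list, it gave 6250 regions in replicate 1 and 6267 in replicate 2, with median signals of 11.8 and 10.6 on their own scales. Cut as above to the length of the optimal list, the strongest regions of replicate 1 included 38 of these and those of replicate 2 included 33. The strongest ones overlapped at 11, which is 28.9% of those of replicate 1 and 33.3% of those of replicate 2.

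**Figure D2:**
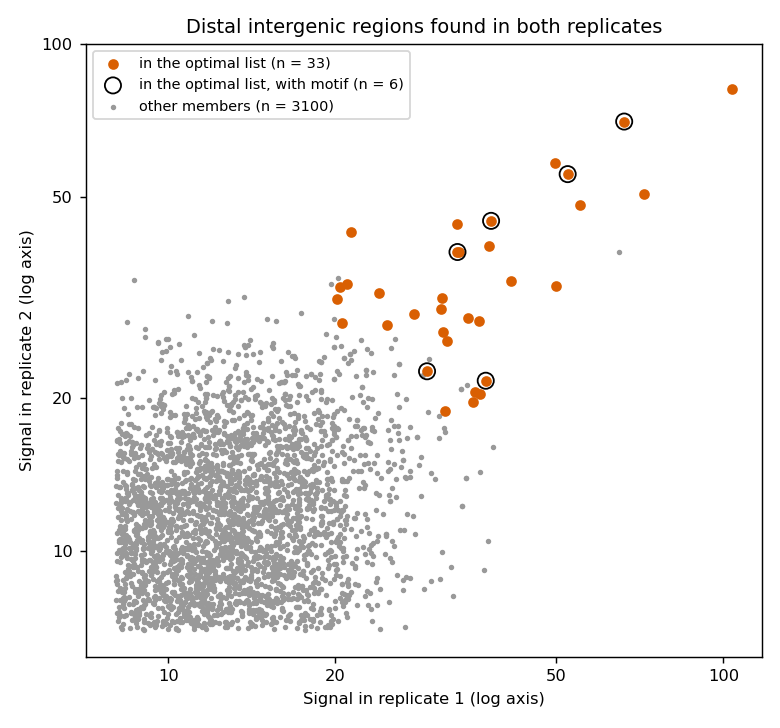
Signal in replicate 1 (x axis) and replicate 2 (y axis), both on log axes, for the 3133 distal intergenic regions that overlap a region in each replicate list. The 33 regions of the optimal list lie towards the upper right and most of the others crowd the lower left, and some lie among the optimal ones; those near ins-13 and Y17G7B.18 overlap a stronger neighbouring peak and take their replicate values from it.

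The motif lay at a larger share of the optimal regions than of the other distal intergenic regions. It was chosen with earlier results of these data known, so its shares are a description and no independent test. GAGACGCAG or AGACGCAGA lay within 50 bp of the summit at 7 of the 35 optimal regions (20%, 8.44–36.9), against 21 of the 6323 others (0.332%, 0.206–0.507). In windows of the same size centred 500 bp to each side of the 35 summits it was found in 0 of 70, where 3 counts of 70 would be 4.29% and the exact upper limit is 5.13%. Optimal peaks at autosomal promoters held it in 15.4% and those inside autosomal genes in 6.45%. The 7 regions are the pair near Y39E4B.6 and those near fnip-2, R06C1.4, zipt-15, nlp-40 and sptf-3. The last, I:13372930–13373225 between the Sp-family transcription factor gene sptf-3 and C01A2.9, had a pooled signal of 55.2 (29.2 in replicate 1 and 22.6 in replicate 2). The shorter word GAGAG lay at 13 of the 35 summits (37.1%, 21.5–55.1), against 20% of their flanking windows. Optimal peaks at autosomal promoters held GAGAG in 34.1%, those inside autosomal genes in 38.7% and intergenic ones on X in 18.5%. Among all 6358 it was at 7.44% of summits, against 13.1% of flanking windows.

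Below the strongest regions the motif was scarce at summits. It was at 6 of the first 25, 3 of the next 75, 0 of the 185 after those and 2 of the next 715. Over all 6358 it was at 28 summits (0.44%, 0.293–0.636) and in 118 of 12716 flanking windows (0.928%, 0.769–1.11). Away from the top of the list it was thus less frequent at the summits than beside them. The strongest regions with the motif outside the optimal list were II:12798826–12799121, near cpt-1 (49.5 in the pooled list, 28.8 in replicate 1 and 22.2 in replicate 2), and IV:2774586–2774881, near Y54G2A.12 (43.9, 37.0 and 9.17), both named after their values were seen. From the side of the sequence, 1177 motif sites lay in the distal intergenic part of the autosomes. Of these, 31 were within 50 bp of a candidate summit (2.63%, 1.80–3.72) and 8 within 50 bp of an optimal summit (0.68%, 0.294–1.33). In autosomal promoter windows, 60 of 1802 motif sites were near a candidate summit (3.33%) and 20 near an optimal one (1.11%). Most copies of the motif in distal sequence were thus further than 50 bp from a candidate summit, which leaves out sites elsewhere inside a region.

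Base composition at the summit moved with these counts. Windows of 50 bp on each side of the distal intergenic summits had a median G+C share of 25.7% (quartiles 22.8 and 29.7), against 32.7% in their flanking windows and 33.9% in the distal autosomal sequence as a whole. Candidate summits at autosomal promoters (26.7%) and inside autosomal genes (24.8%) had similar medians. The 25 strongest distal regions had a median of 36.6% and flanks of 35.6%. Regions ranked 26 to 100 already had 23.8% at the summit and 33.7% in the flanks. Since the motif is rich in G and C, its counts were also set out by composition, with limits chosen after the data were seen. Among windows of 40% G+C or more, the motif was at 6 of 11 optimal regions (54.5%, 23.4–83.3) and at 10 of 112 others (8.93%, 4.37–15.8). Among windows under 30% G+C it was at 0 of 14 optimal regions and 3 of 5135 others. What the A+T-rich composition of the weaker summits contributed to their signal was not tested. Only 7 of the 6358 had another exact copy of their central 51 bp in the genome, and none of the 35 did.

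**Figure D3:**
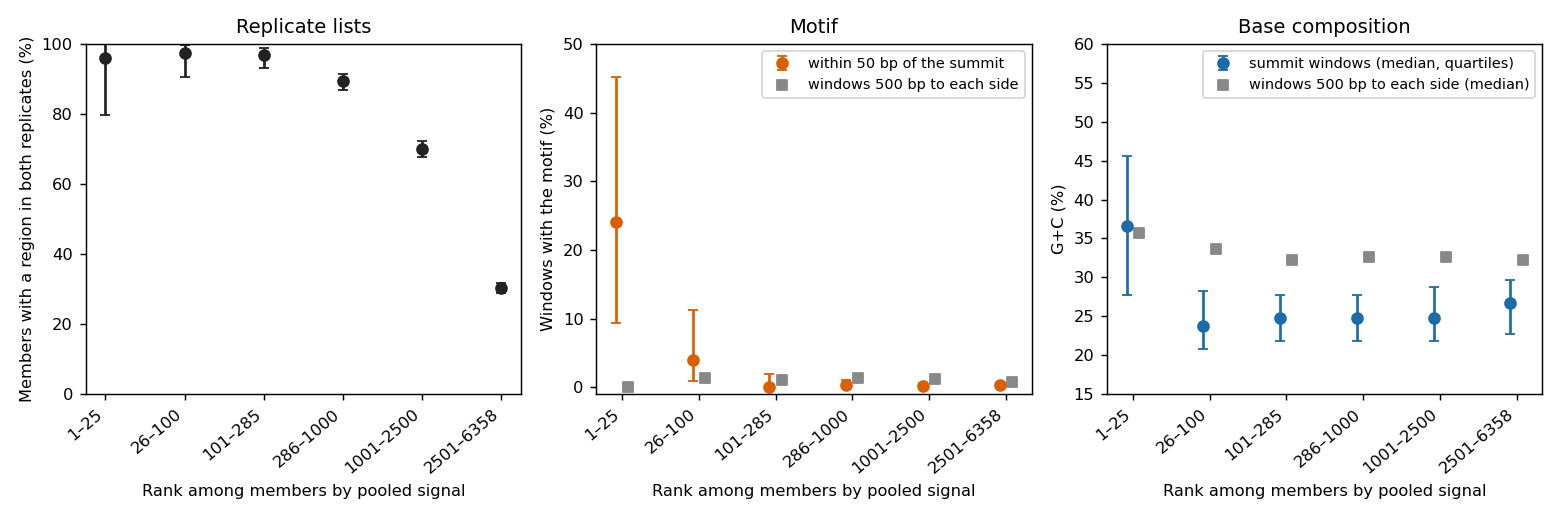
Panels against the rank of the 6358 distal intergenic regions by pooled signal: the share matched in both replicates, the share with the motif at the summit and in flanking windows, and the median G+C share at the summit and in flanking windows. Bars are exact 95% intervals in the first and second panels and quartiles in the third; the first 25 regions have the motif at 24% of summits and a G+C share of 36.6%, and beyond the first 100 the motif is at a smaller share of summits than of flanking windows.

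Most of these regions were distal to protein-coding genes, but fewer were distal to every gene. The summit was a median of 770.5 bp from the nearest gene of any biotype (quartiles 149 and 1807) and 1968.5 bp from the nearest protein-coding gene (quartiles 1066 and 3616.5). It was over 1000 bp from every protein-coding gene in 4934 (77.6%) but over 1000 bp from every gene in 2875 (45.2%). Within 200 bp of a gene lay 1886 (29.7%), and 510 of them were just past the 3′ end of a protein-coding gene. The optimal regions had similar distances, with medians of 928 bp to any gene and 2104 bp to a protein-coding gene, and 17 of the 35 were over 1000 bp from every gene. The median signal was 18.9 within 200 bp of a gene, 19.4 between 1000 and 2000 bp and 18.9 beyond 5000 bp, so it varied little with distance.

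The flanking protein-coding genes were read as convergent (both ending towards the summit), divergent (both starting towards it) or tandem. Divergent gaps held 2177 regions (34.2%, 33.1–35.4), against 30.2% of the distal autosomal sequence. Convergent gaps held 767 (12.1%, 11.3–12.9), against 16.5% of the sequence, and tandem gaps 3411 (53.6%, 52.4–54.9), against 53.1%. Per Mb of distal sequence there were 437 regions in divergent gaps, 390 in tandem gaps and 282 in convergent gaps. In the optimal list 14 of 35 were in divergent gaps (40%, 23.9–57.9) and 2 in convergent ones (5.71%, 0.7–19.2), and these intervals are wide enough to hold the shares of all 6358. The 2 convergent ones were the regions between irld-55 and Y37A1B.7 and between nlp-40 and rcor-1.

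**Figure D4:**
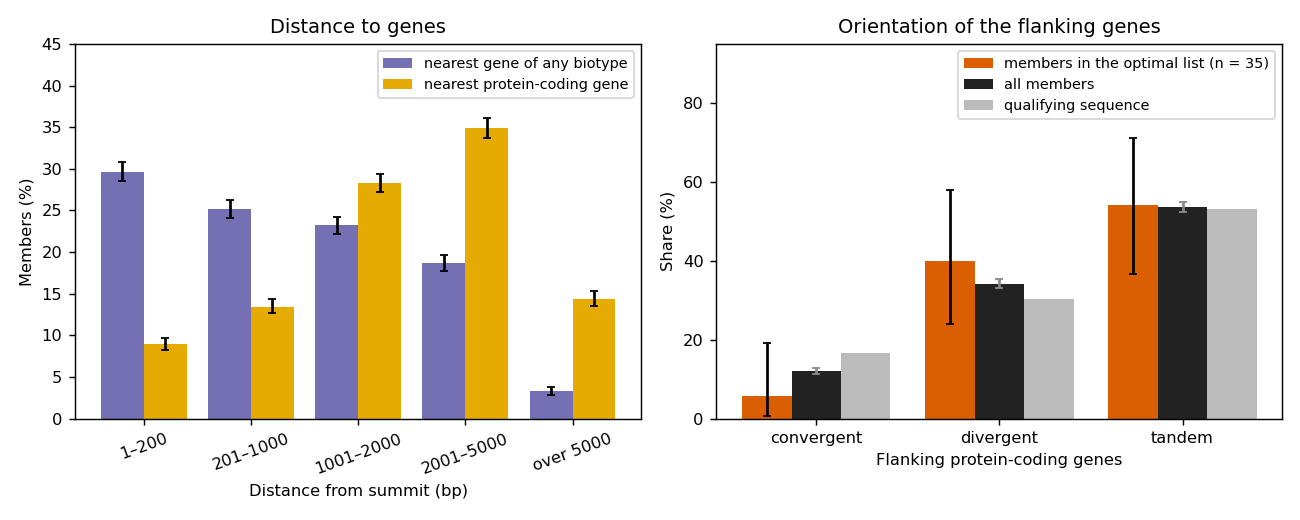
Left, share of the 6358 distal intergenic regions by distance from the summit to the nearest gene of any biotype and to the nearest protein-coding gene. Right, share of the 35 optimal regions, of all regions and of the distal autosomal sequence by orientation of the flanking protein-coding genes; bars are exact 95% intervals, and the convergent share is 5.71%, 12.1% and 16.5% in that order.

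Chromosome IV held the most distal intergenic regions. It had 2278 (35.8% of all), or 525 per Mb of its distal sequence, and the 2 replicate lists gave 485 and 495 per Mb. Chromosome III had 390 per Mb, V 346, I 343 and II 275. Among the autosomes, IV also held the most candidate regions of all classes together, 6546, and II the fewest, 3309. The distal intergenic share of these was 34.8% on IV and 19.4 to 27.1% on the other autosomes. Distal sequence itself was a larger part of chromosome IV, 24.8%, against 16.7 to 20.2% of the other autosomes. Chromosome V, for example, had a share of 27.1% with 19.3% of its sequence distal. The share alone thus does not set IV apart. On chromosome IV a piRNA gene was the nearest gene at 61.9% of the regions and the median distance to a gene was 143 bp, against 1000 to 1381 bp on the other autosomes. The piRNA genes there are small and tightly packed. The number of optimal regions did not follow these densities, with 9 on I, 8 on IV, 8 on V, 6 on II and 4 on III. Chromosome IV also had the lowest median signal, 18.9, and chromosome III the highest, 20.2. The strongest region had 187 on II, 139.5 on III, 113 on IV, 111 on I and 77.6 on V. Distal sequence covered 19.96% of the autosomes and held 6358 of their 23547 candidate regions, with 386 per Mb, against 260 per Mb in the other autosomal sequence. The optimal peaks did not show this excess. Of the 189 on autosomes, 35 were distal (0.551% of the distal candidates) and 154 lay in the other sequence (0.896% of its candidates). Most candidates are outside the optimal list, so the density is no measure of EOR-1 binding.

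Each autosome was cut into 3 equal parts, and on chromosomes I, II and V the middle part was densest. Chromosome I had 531 regions per Mb of distal sequence in its middle part, 268 in the left part and 248 in the right part. Chromosome II had 392, 168 and 265 in the same order, and chromosome V had 461, 325 and 243. On chromosomes III (380, 364 and 425) and IV (551, 376 and 607) the right part was densest. No counts of other candidate classes by part are given here, so the pattern cannot be called particular to distal regions. The middle part held 4 of the 9 optimal regions of chromosome I, 2 of the 6 of II, 0 of the 4 of III, 5 of the 8 of IV and 4 of the 8 of V. Neighbouring summits were a median of 1695 bp apart, and 8.22% of the gaps were of 500 bp or less. Of the 35 optimal regions, 10 had another optimal peak of any class within 5000 bp, among them the pairs near nhr-88, Y39E4B.6 and lip-1. Both regions of each pair are counted. No such count is given for the other optimal peaks, so the 10 cannot be called clustering.

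**Figure D5:**
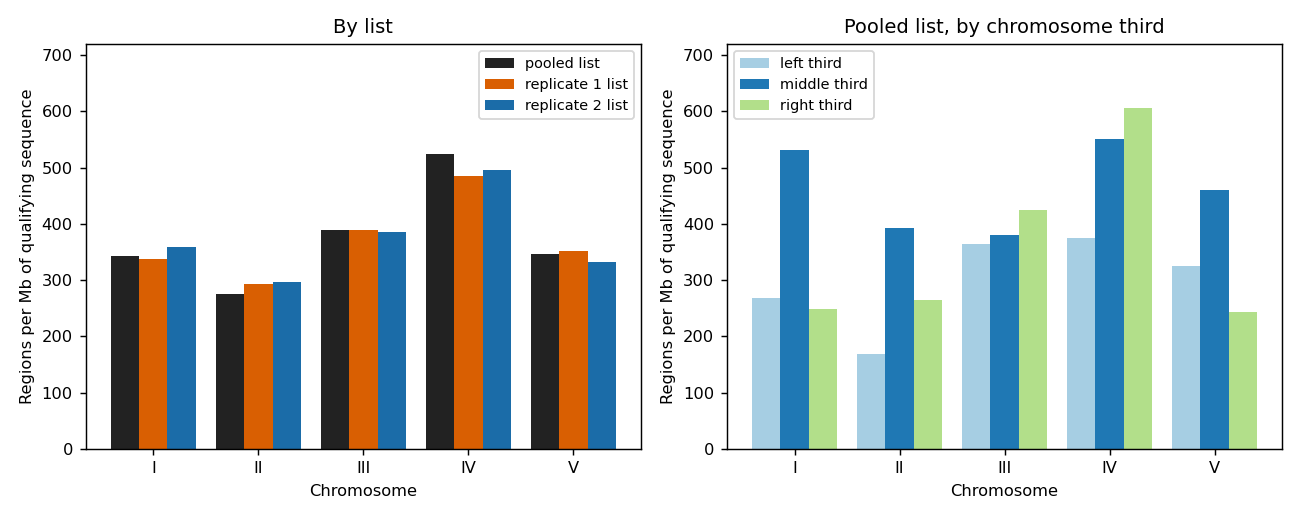
Distal intergenic regions per Mb of qualifying sequence on each autosome, in the pooled list and the 2 replicate lists (left) and in the left, middle and right part of each chromosome in the pooled list (right). Chromosome IV is highest in every list, with 485 to 525 per Mb.

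Genes of the pathways in which EOR-1 is known to act were read from lists of symbols. Of 18 Ras-ERK genes, 3 flanked 11 regions (0.173% of all), and 0 of the 11 were in the optimal list, a count near the background of 0.551%. The strongest, IV:6749583–6749878, had its summit 1159 bp upstream of the 5′ end of lin-45, the worm Raf gene. It had a pooled signal of 42.0 (27.2 in replicate 1 and 17.6 in replicate 2) and was 1 of 8 regions beside this gene. Regions beside lin-1, the ETS factor gene, reached 24.7, and that beside sos-1 had 15.9. Outside this list of symbols is lip-1, the MAP kinase phosphatase gene, whose upstream optimal regions had 65.8 and 53.0. It was set beside the list after its values were seen, so it does not change the count of 0 for the list. Of 16 Wnt genes, 4 flanked 18 regions, the strongest 4729 bp upstream of the Frizzled gene cfz-2 with 34.5 (15.6 and 19.0).

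The Hox genes stand in long intergenic stretches, and 5 of 6 flanked 42 regions, 0 of them optimal, where 0.551% of all 6358 regions were optimal, so a count of 0 is near the background. Both lin-39 and ceh-13 flanked 14, counted on either side of the gene, and the strongest of them lay between the pair with 30.9 (12.99 and 13.6). Those beside egl-5 reached 33.4 and those beside mab-5 32.8. Of 8 heterochronic genes, lin-41 and lin-29 flanked 9 regions, which reached 52.0 and 20.5. The Hox regions had a median signal of 17.5, against 19.2 over all 6358.

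Among the larger families, 75 nuclear hormone receptor genes flanked 4.48% of the regions and 4.56% of the strongest ones, again as many as the optimal list holds, with 3 optimal. The optimal ones are the pair near nhr-88 and IV:7047720–7048015, 2288 bp upstream of nhr-105 (53.8; 36.2 in replicate 1 and 28.4 in replicate 2). Chemoreceptor genes flanked 507 regions (7.97%), with 19 among the strongest (6.67%) and 2 optimal, both in the gap shared by srw-60 and nhr-88. Neuropeptide genes flanked 179 (2.82%), with 5 among the strongest (1.75%) and the optimal region at nlp-40. Genes with hsp, hsf or dnj symbols flanked 35 (0.55%), with 3 among the strongest (1.05%) and 0 optimal. These lists go by symbol and are not complete. The Hsp70 gene F44E5.5, named after its values were seen, is outside the symbols, and an optimal region of 54.3 (31.7 in replicate 1 and 25.9 in replicate 2) lay 169 bp past its 3′ end. Likewise mfb-1, the F-box gene beside an optimal region, is outside the list of fbxa, fbxb and fbxc symbols. Genes with symbols for collagens (69 regions), C-type lectins (70), ceh homeobox proteins (53), these F-box families (40), ribosomal proteins (42) and histones (3) had 0 optimal regions, and at 0.551% optimal over all regions such counts are near the background.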

How the data were processed

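Both replicates were one group, and no test between groups was made. The deposited README files state that the authors called candidate regions in ce11 on the alignments of 1 replicate or of both, each time with a control, and took the optimal list from these by IDR. Fragments were 150 to 350 bp, per the labels. The software and its thresholds are not given in the sources used. The deposited signal values are on an unstated scale, beside the −log10 of a q value and the summit's offset. Every candidate list holds 30000 regions, so its length says nothing of depth. The ce10 lists were not analysed here.

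Genes came from Ensembl release 115 and sequence from RefSeq (WBcel235, the same assembly as ce11). Overlap meant at least 1 bp, and the strongest overlapping replicate region gave the value. Words were searched on both strands, within 50 bp of each summit and of points 500 bp to each side. Shares carry exact Clopper-Pearson 95% intervals. Flanking genes were named at the 25 strongest regions, at optimal regions with the motif and at the strongest region of each autosome. Members, gene lists and motif were chosen with earlier results of these data known. The tools were Python (3.11.15) with SciPy (1.17.1), pandas (2.3.3), numpy (2.4.6) and matplotlib (3.10.9). Position, overlap and word searches were tested on simulated data.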

Additional observations from a re-analysis of the deposited data

How the results depend on the processing

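With the promoter window set at 500 bp upstream to 200 bp downstream, 9.97% of the regions lay between convergent genes, and at 2000 bp upstream to 500 bp downstream 15.5% did. With promoter windows around transcripts of every biotype there were 4221 regions, of which 8.96% were convergent, and the median distance to a gene was 1402 bp. With protein-coding genes alone as genes the median distance was 1978 bp, and from the same 6358 summits to protein-coding genes it was 1968.5 bp. Among the 1000 regions of highest signal, 3.5% overlapped the optimal list, 91.5% were matched in both replicates, 1.1% held the motif and 10% were convergent. Among the 36 regions with a q value under 0.05 these shares were 97.2%, 94.4%, 19.4% and 8.33%, and both sets were chosen on the signal or q value. The share matched in both replicates was 38.5% when 50% of each region had to overlap and 31.8% when summits had to lie within 100 bp. The motif was at 0.786% within 100 bp of the summit and 0.204% within 25 bp. The rule applied to a single replicate list, which leaves out the other replicate, gave median signals of 10.6 to 11.8, on the scale of that list. The cause of these changes was not tested, beyond the smaller windows and sets themselves. The alternatives were run for 7 results: the number of regions, their median signal, their median distance to a gene, and the optimal, matched, motif and convergent shares. In these, the other settings stayed within the interval, the quartiles or 1.5 times. Other shares and medians were not recomputed. No paired analysis was possible because there is 1 group. Read depth is unknown, so weak regions cannot be told from background.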

Other observations

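The regions and genes here were picked after their values were seen. Below the optimal list, regions of high pooled signal lay near genes of many kinds, of which 4 are given. The region between C03B8.3 and ncl-1, which limits the size of nucleoli, had 50.96 (20.2 in replicate 1 and 34.5 in replicate 2), and that between npp-7, a nucleoporin gene, and pamn-1 had 50.6 (36.4 and 14.3). The region between mnk-1, a MAP kinase interacting kinase gene, and cdc-48.1, an AAA ATPase gene, had 49.5 (21.2 and 24.5). The region upstream of che-10, a rootletin gene of ciliated neurons, had 48.6 (29.5 and 23.96). The replicate values near npp-7 were the most uneven of these.

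By the nearest gene of any biotype, 49.9% of the 6358 regions had a protein-coding gene, 24.4% a piRNA gene and 18.0% another non-coding RNA gene, of which the optimal list held 18, 3 and 11 of its 35. Among the small classes, 37 regions had a microRNA gene nearest and 70 a snoRNA gene, with 1 optimal region each. The 4 regions nearest a snRNA gene had a median signal of 35.1. Among heat shock genes, the strongest region beside hsp-16.1 had 39.2 (15.5 in replicate 1 and 25.7 in replicate 2), and that 236 bp past the 3′ end of hsf-1, the heat shock factor gene, had 27.8 (17.4 and 10.2).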
